A study of Rattus norvegicus with 10 samples.

Results

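Prostaglandin synthesis enzymes and the EP receptors for prostaglandin E2 were examined in the trigeminal ganglion (TG), which houses the cell bodies of the sensory neurons of the mouth and face, in rats with oral ulcerative mucositis (OUM). The members were 10 genes of the 15507 named genes on the array: the cyclooxygenases Ptgs1 and Ptgs2, the prostaglandin E synthases Ptges, Ptges2 and Ptges3, the breakdown enzyme Hpgd, and the receptors Ptger1, Ptger2, Ptger3 and Ptger4. They were chosen by name, and every array probe whose transcript accession belonged to 1 of the 10 genes was kept, which gave 12 probes of 30367. RNA from each rat was hybridised to a single-colour Agilent array, with 5 naive and 5 OUM animals, so that each array stands for 1 rat. All animals were male Wistar rats, 8 weeks old. In the OUM group a filter paper soaked in 50% acetic acid had been laid for 30 s on the mucosa of the lower labial fornix under anaesthesia, and the ganglia were taken on day 2. The naive group, labelled Control, was anaesthetised without acid. The ganglia of both sides were taken whole after perfusion with cold saline, so each value averages neurons, glia, vessels and resident immune cells of all trigeminal divisions. In such bulk tissue, fewer cells of a type and less RNA per cell cannot be told apart.

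Cyclooxygenases turn arachidonic acid, freed from membrane lipids by phospholipases, into the unstable prostaglandin H2. Ptgs1 encodes the form present in many resting tissues and Ptgs2 the form induced by inflammatory signals, while the prostaglandin E synthases convert prostaglandin H2 to prostaglandin E2 and Hpgd inactivates that product. Prostaglandin E2 acts on the G protein-coupled receptors EP1 to EP4, encoded by Ptger1 to Ptger4, and is known to sensitise nociceptive sensory neurons to heat and pressure.

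The promoters of Ptges and Ptgs2 are printed because these genes encode the inducible pair of the pathway, a cyclooxygenase and the terminal synthase that works with it, and the values given further on turn on them. The sequences are RefSeq's for the GRCr8 rat assembly, 250 bases before to 50 bases after the annotated start of each gene, 5′ to 3′ on the gene's strand. The table held such a window for 9 of the 10 genes. The window of Ptges lies on the minus strand at chr3:34586938-34587237 and that of Ptgs2 on the plus strand at chr13:64713813-64714112. Capitals mark matches to any of 8 motifs searched on both strands.
Ptges: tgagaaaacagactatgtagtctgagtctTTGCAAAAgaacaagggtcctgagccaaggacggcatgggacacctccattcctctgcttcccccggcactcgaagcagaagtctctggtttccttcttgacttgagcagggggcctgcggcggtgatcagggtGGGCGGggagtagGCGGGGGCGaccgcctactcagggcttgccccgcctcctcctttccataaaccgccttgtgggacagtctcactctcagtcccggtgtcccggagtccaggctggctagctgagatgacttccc
Ptgs2: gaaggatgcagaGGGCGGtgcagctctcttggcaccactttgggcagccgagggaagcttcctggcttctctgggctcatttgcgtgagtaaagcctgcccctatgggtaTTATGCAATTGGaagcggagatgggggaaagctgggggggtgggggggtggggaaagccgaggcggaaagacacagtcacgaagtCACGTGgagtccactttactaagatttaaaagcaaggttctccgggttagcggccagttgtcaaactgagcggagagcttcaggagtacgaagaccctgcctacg

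The 8 motifs were TATAAA for the TATA box, CCAAT for the CCAAT box, GGGCGG for the GC box, CACGTG for the E-box, TGACGTCA for the cAMP response element, the NF-kB consensus, TTGCNNAA for C/EBP and GCGNGGGCG for the EGR factors. Where the C/EBP and CCAAT matches of Ptgs2 share bases, the capitals run together. Of the 33469 promoters of this length in the table, 33.1% held the GC box, 10.6% the C/EBP motif, 4.98% the EGR motif, 7.51% the NF-kB motif, 37.5% the CCAAT box and 6.42% the E-box. The TATA box was in 14.2% of all promoters and the cAMP response element in 1.83%, and the 9 member windows held neither in these letters. The Ptges window held the C/EBP motif with its first base 221 bases before the start, the GC box 87 bases before it and the EGR motif 74 bases before it. The Ptgs2 window held the GC box, C/EBP, CCAAT and E-box motifs, the last at 55 bases before the start. The windows of Ptgs1, Ptger2 and Ptger4 held none of the 8. A match is a description of the letters and was not tested for binding.

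Signals are given as the scanner software's processed signal in intensity units, and levels as log2 of that signal minus log2 of the array's 75th percentile, so that 0 is the 75th percentile of each array. That percentile lay between 1910 and 2174 on the 10 arrays, 69.1% to 75.7% of probes were well above background per array, and the levels of any pair of arrays correlated at 0.989 to 0.998. All 13 neuronal marker genes on the array, among them Calca, Scn10a, Trpv1 and P2rx3, were well above background on every array. Between OUM and naive, limma called 0% of 21545 probes at an adjusted p under 0.05, with a smallest adjusted p of 0.0546, and the methods' t-test called 1. Before adjustment 4.65% of probes were higher and 3.71% lower in OUM at p under 0.05. In 0.928% of probes all 5 OUM arrays exceeded all 5 naive arrays, and in 0.71% all 5 lay below.

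Among the 10 members, Ptges was the one whose groups separated. Ptgs1, the other prostaglandin E synthases, Hpgd and the receptors overlapped between naive and OUM, and Ptgs2 stayed near background. Of the 12 probes, 9 were bright enough to be tested, 1 for each gene except Ptgs2. Of those 9, 5 were higher and 4 lower in OUM, 1 was higher at an unadjusted p under 0.05 and 0 were lower, and limma called 0 after adjustment over all probes. Their median log2 difference was 0.034, against -5.9e-05 over all 21545 probes tested, and the median size of the difference was 0.088 against 0.065. Because dim probes were left out, these counts describe the 9 probes tested and not the 10 genes.

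**Figure D1:**
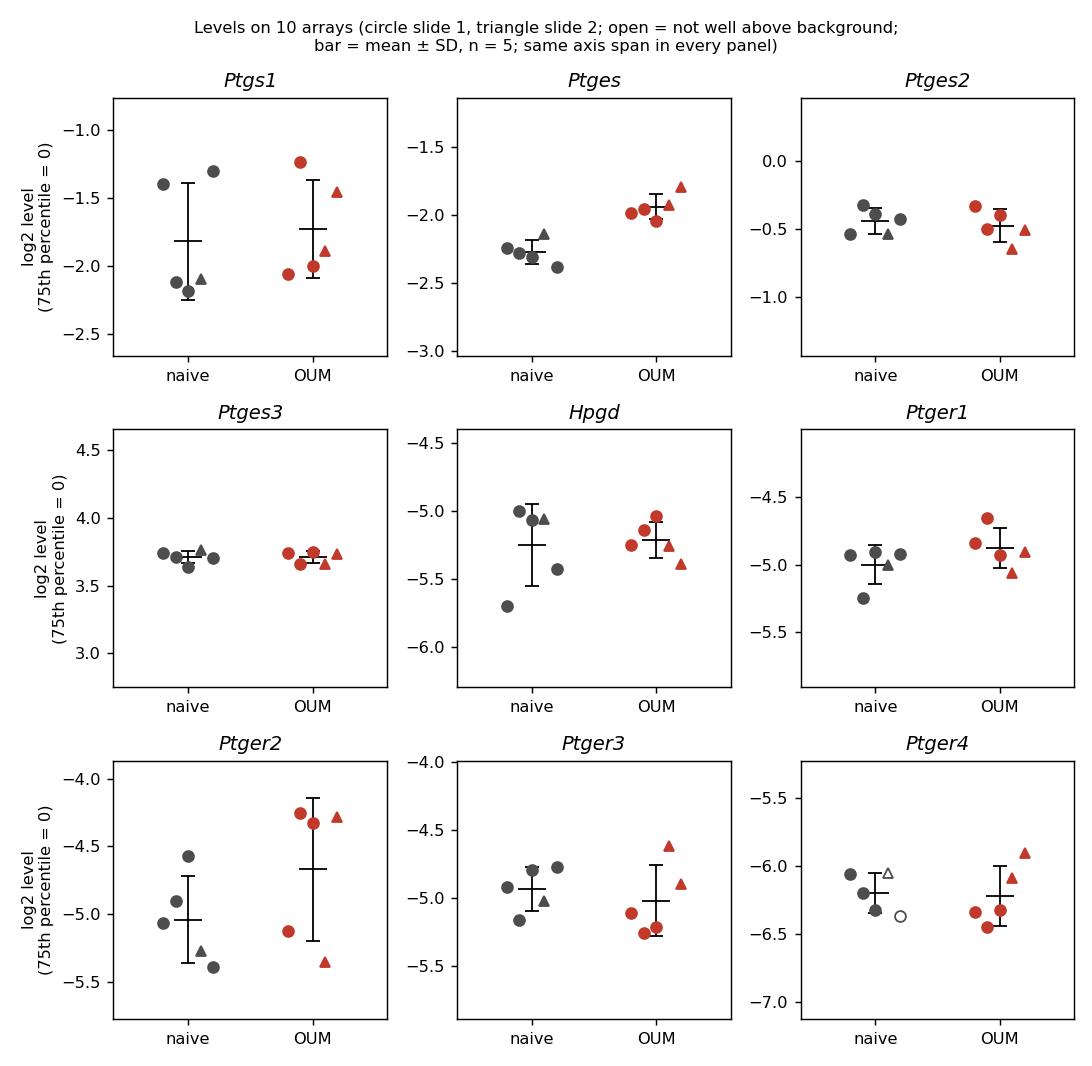
Log2 level (75th percentile of the array = 0) of the 9 probes tested on the 5 naive and 5 OUM arrays; bars give mean ± SD, circles and triangles slide 1 and slide 2, open symbols arrays on which the probe was not well above background. The groups separate for Ptges, where the lowest OUM point is at -2.04 and the highest naive point at -2.14, and overlap for the other 8 genes.

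Ptges encodes microsomal prostaglandin E synthase-1, the inducible terminal synthase that works together with cyclooxygenase-2 in inflamed tissue. Its processed signal was 409.7, 423.9, 430.6, 469.7 and 367.8 on naive arrays 1 to 5. On OUM arrays 1 to 5 it was 503.9, 530.8, 477.5, 573.4 and 612.5. The lowest OUM array thus lay above the highest naive array, so the groups did not overlap, and the highest naive value, on array 4, and the highest OUM values, on arrays 4 and 5, were all on slide 2. The log2 level was -2.27 ± 0.087 in naive and -1.94 ± 0.092 in OUM (SD, n = 5 each). The difference was 0.33 on the log2 scale (SE 0.060, 95% interval 0.20 to 0.46), a fold of 1.26 (1.15 to 1.38).

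For Ptges, limma gave an unadjusted p of 0.00022, rank 21 of the 21545 probes tested, and an adjusted p of 0.218, so the difference did not pass the correction. The exact permutation test over the 10 rats gave a two-sided p of 0.00794, the smallest that a comparison of 5 against 5 allows. The arrays came on 2 slides that carried the groups unequally, with 4 naive beside 3 OUM arrays on slide 1 and a single naive array beside 2 OUM arrays on slide 2. The log2 difference of Ptges was 0.31 within slide 1, 0.29 within slide 2 and 0.30 with slide as a block, where the limma adjusted p was 0.108. Ptges has 1 spot on each array, for which the scanner software's own error estimate was at most 10.2% of the signal.

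Ptges2 and Ptges3 encode the other prostaglandin E synthases, a membrane-associated form and the cytosolic form that is also the Hsp90 co-chaperone p23. The Ptges2 signal ran from 1331.3 to 1640.7 in naive and from 1382.4 to 1576.0 in OUM. The groups overlapped, and the log2 difference of Ptges2 was -0.036 (SE 0.069, 95% interval -0.19 to 0.12, limma adjusted p = 0.914). Ptges3 ran from 24818.7 to 28045.3 in naive and from 25981.1 to 28079.0 in OUM. Its log2 difference was -0.0033 (SE 0.041, 95% interval -0.094 to 0.087, limma adjusted p = 0.989), the narrowest interval among the 9 probes, and its spread within groups, an SD of 0.044, was at the 2.6th percentile of all probes tested.

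Ptgs1, which encodes cyclooxygenase-1, was represented by a probe printed in 10 spots and by a second probe printed in 2. The signal of the first probe was 734.6, 472.9, 467.9, 485.2 and 778.1 on naive arrays 1 to 5. It was 477.1, 867.3, 490.5, 587.8 and 774.0 on OUM arrays 1 to 5. Naive 1, naive 5, OUM 2 and OUM 5 lay between 734.6 and 867.3 and the other 6 arrays between 467.9 and 587.8, so high and low arrays occurred in both groups, and OUM 2 was the 1 OUM array above every naive array. The log2 difference of Ptgs1 was 0.09 (SE 0.23, 95% interval -0.41 to 0.59, limma adjusted p = 0.935, exact permutation p = 0.611), which leaves room for a change in either direction larger than that of Ptges.

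The spread of Ptgs1 between rats of a group was wide, with a log2 SD of 0.40 at the 94.7th percentile of all tested probes, whose median was 0.126. The 10 spots of Ptgs1 on an array had log2 SDs between 0.033 and 0.10, but they share 1 labelling and hybridisation, so this gives no measure of the error between arrays. Across the 10 arrays the probes whose levels followed Ptgs1 most closely were those of Ggcx, with a Pearson r of 0.97, and Ly6g6e, with 0.94. The second Ptgs1 probe was not well above background on any array, with signals of 5.8 to 17.7, and gave no difference.

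Ptgs2, the gene of cyclooxygenase-2, was not well above background on any of the 10 arrays. Its signal was 9.7, 11.7, 15.9, 14.2 and 10.4 on naive arrays 1 to 5. It was 10.5, 11.3, 18.7, 26.2 and 19.1 on OUM arrays 1 to 5. The 3 highest values were all in OUM, on arrays 3, 4 and 5, while OUM 1 and OUM 2 lay among the naive arrays. Of the 20 Ptgs2 spots on the arrays, 1 was well above background, on OUM 4, and the probe was positive and significant, a looser measure of detection, on 3 naive and 4 OUM arrays. The lowest signal of any probe well above background was 18.7 to 34.9 on the naive arrays and 19.2 to 22.4 on the OUM arrays. With neither group well above background no fold is given for Ptgs2, and a change at these signals was not detectable with these arrays.

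**Figure D2:**
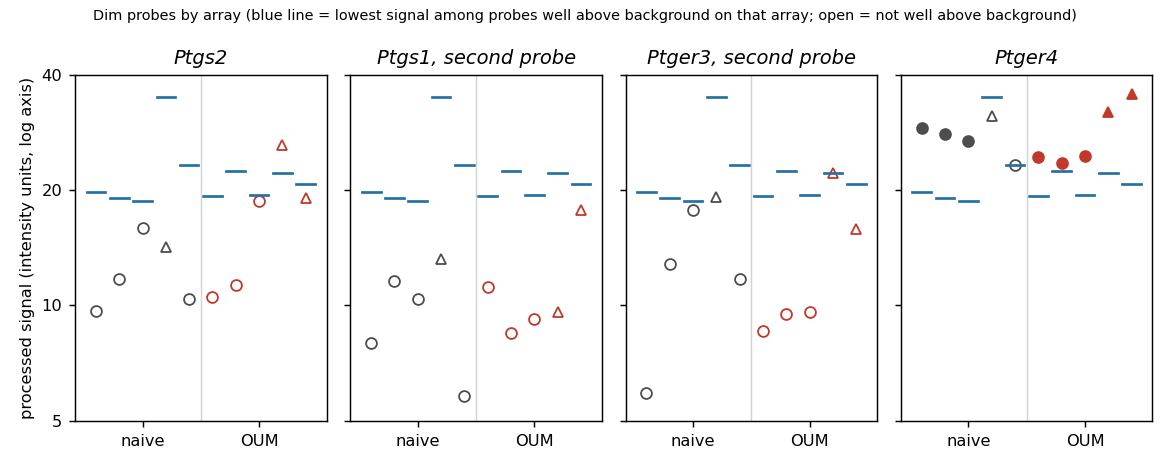
Processed signal (intensity units, log axis) of 4 dim probes on naive arrays 1 to 5 and OUM arrays 1 to 5, from left to right in each panel; the blue line is the lowest signal among probes well above background on that array and open symbols mark arrays where the probe was not well above background. Ptgs2 and the second probes of Ptgs1 and Ptger3 have open symbols on all 10 arrays, and Ptger4 has open symbols on naive 4 and naive 5.

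Hpgd encodes 15-hydroxyprostaglandin dehydrogenase, which begins the inactivation of prostaglandin E2. Its signal was 37.1, 64.1, 63.9, 62.3 and 44.5 on the naive arrays and ran from 50.5 to 59.8 on the OUM arrays. All 5 OUM values lay inside the naive range, with naive 1 and naive 5 the lowest of the 10. The log2 difference of Hpgd was 0.034 (SE 0.13, 95% interval -0.27 to 0.33, limma adjusted p = 0.960).

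Of the receptors, Ptger2 encodes EP2, which couples to Gs and raises cyclic AMP. The Ptger2 signal was 58.1, 68.6, 90.3, 53.8 and 45.6 on naive arrays 1 to 5. It was 57.2, 108.1, 97.8, 53.5 and 108.9 on OUM arrays 1 to 5. OUM arrays 2, 3 and 5 were above every naive array, while OUM 1 and OUM 4 lay among the lower naive values. The log2 level of Ptger2 was -5.04 ± 0.32 in naive and -4.67 ± 0.52 in OUM, and the difference of 0.37 (SE 0.25, 95% interval -0.17 to 0.92) was within the spread between rats. For Ptger2 the limma adjusted p was 0.740 and the exact permutation p 0.214, and the spread within groups was at the 95.8th percentile of all probes tested.

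Ptger1 encodes EP1, which raises intracellular calcium. Its signal ran from 54.1 to 71.2 in naive, with naive 2 the lowest, and from 64.5 to 81.5 in OUM. The groups overlapped, with a log2 difference of 0.12 (SE 0.088, 95% interval -0.075 to 0.31, limma adjusted p = 0.765, exact permutation p = 0.270). The difference of Ptger1 was 0.058 without naive 2 and 0.063 without OUM 2. Ptger4 encodes EP4, the other receptor of the family that raises cyclic AMP. Its signal ran from 23.2 to 31.2 in naive and from 23.5 to 35.6 in OUM, and it was well above background on 3 naive and 5 OUM arrays, so it entered the test through the OUM group. The log2 difference of Ptger4 was -0.021 (SE 0.11, 95% interval -0.26 to 0.22, limma adjusted p = 0.972).

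Ptger3 encodes EP3, whose splice forms couple mainly to Gi and lower cyclic AMP. The signal of its first probe was 63.9, 57.3, 77.4, 63.9 and 70.0 on naive arrays 1 to 5. It was 57.3, 53.6, 53.1, 88.6 and 71.1 on OUM arrays 1 to 5. The OUM arrays of slide 1, arrays 1 to 3, were close to the lowest naive value, whereas the OUM arrays of slide 2, arrays 4 and 5, were above the median of naive. Over all arrays the log2 difference of Ptger3 was -0.088 (SE 0.13, 95% interval -0.37 to 0.19, limma adjusted p = 0.890), and it was between -0.19, without OUM 4, and -0.028, without OUM 2, when single arrays were left out. The difference was -0.29 within slide 1 (limma unadjusted p = 0.025, adjusted p = 0.334) and 0.26 within slide 2 (limma adjusted p = 0.587), which holds a single naive array. The second Ptger3 probe was not well above background on any array, with signals of 5.9 to 22.1.

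**Figure D3:**
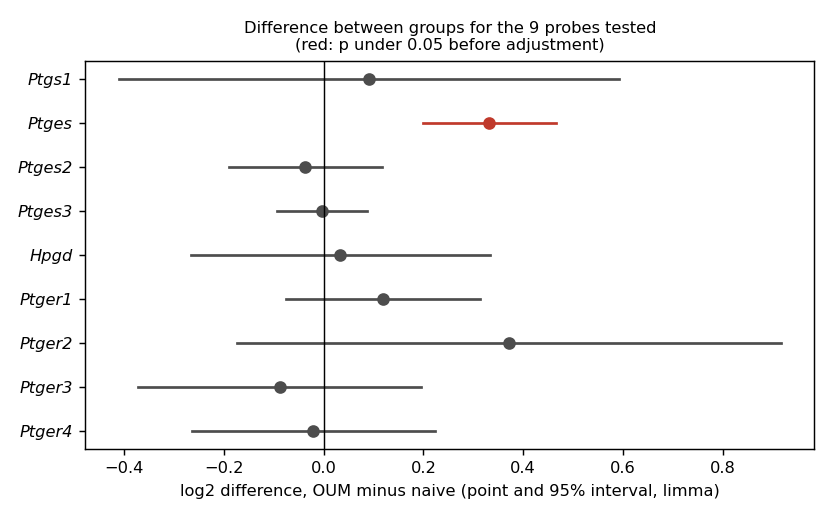
Log2 difference between OUM and naive, with its 95% interval from limma, for the 9 probes tested. The interval of Ptges, 0.20 to 0.46, lies above 0, and the other 8 intervals include 0, from the narrow one of Ptges3 to the wide ones of Ptgs1 and Ptger2.

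Groups that did not overlap were seen for Ptges and not for Ptgs1, whose enzyme makes the substrate of the synthases, or for the receptors of prostaglandin E2, and whether Ptges differed from the other members was not tested. The probes whose levels followed Ptges most closely over the 10 arrays were those of Sema6b and Slc39a1, both with a Pearson r of 0.93. For Ptger2 they were Snrpg, with 0.90, and Sec61g, with 0.87, and for Ptger1 S100b, with 0.91. These correlations describe 10 arrays that include both groups, so a difference between the groups that 2 genes share can raise r. Probes of Sema6b (log2 difference 0.22) and Slc39a1 (0.53) were themselves higher on all OUM arrays than on all naive arrays, as Ptges was. The nearest genes were picked from the named probes well above background on all 10 arrays, with members and provisional LOC or RGD symbols left out.

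Upstream of the cyclooxygenases, 2 of the 10 genes tested for phospholipases and arachidonic acid release were higher in OUM at an unadjusted p under 0.05 and 0 were lower. They were the diacylglycerol lipases Dagla, with a log2 difference of 0.12, and Daglb, with 0.19, which make the endocannabinoid 2-arachidonoylglycerol, a source of arachidonic acid. The cytosolic phospholipase Pla2g4a differed by 0.19 and Pla2g4b by -0.19, neither past that threshold. The median of this list was -0.00016. For comparison with the counts here and in the lists below, 4.65% of all probes tested were higher and 3.71% lower at that threshold.

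Among the other prostanoid synthases, breakdown enzymes and transporters 0 of 11 tested genes passed an unadjusted p of 0.05 in limma. Ptgds, the prostaglandin D synthase, differed by 0.22, Ptgis, the prostacyclin synthase, by 0.22 and Cbr1, which reduces prostaglandin E2 to the F form, by -0.26. Of 7 tested genes for other prostanoid receptors 1 was higher, the nuclear receptor Ppard, at 0.20 by 1 probe and -0.05 by its other probe. In the leukotriene and lipoxygenase pathway 0 of 9 tested genes passed, the furthest from 0 being Ephx2, the soluble epoxide hydrolase, at -0.38. After adjustment limma called 0 genes in each of these lists.

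Of 30 tested genes for the coupling of EP receptors and for pain-related channels, 2 had higher and 2 had lower levels in OUM before adjustment (p under 0.05), with a median of -0.024. The higher were Rapgef3, the cyclic AMP-activated exchange factor Epac1, at 0.25, and Gna11, a G protein subunit of the Gq family, at 0.12. The lower were Plcb4, a phospholipase C, at -0.16, and Scn9a, the sodium channel Nav1.7, at -0.14. All 5 OUM arrays lay below all 5 naive arrays for Scn9a, with an exact permutation p of 0.00794 and a limma adjusted p of 0.494. The capsaicin receptor Trpv1 differed by -0.060 with its brighter probe and the sodium channel Scn10a by -0.039, within the spread between rats. The dimmer Trpv1 probe differed by -0.14.

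Of 13 tested genes for cytokines and factors known to control cyclooxygenase-2, 2 were higher at an unadjusted p under 0.05 and 0 lower, with a median of 0.080. Cebpb, a transcription factor of the C/EBP family, was higher by 0.20 (limma adjusted p = 0.516), and Rela, the NF-kB subunit p65, by 0.20 with its brighter probe (limma adjusted p = 0.532) and 0.36 with its dimmer one. Il1b, the cytokine interleukin-1 beta, differed by -0.38 and Tnf by -0.23, neither past the threshold. Il6 was not well above background on any array.

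**Figure D4:**
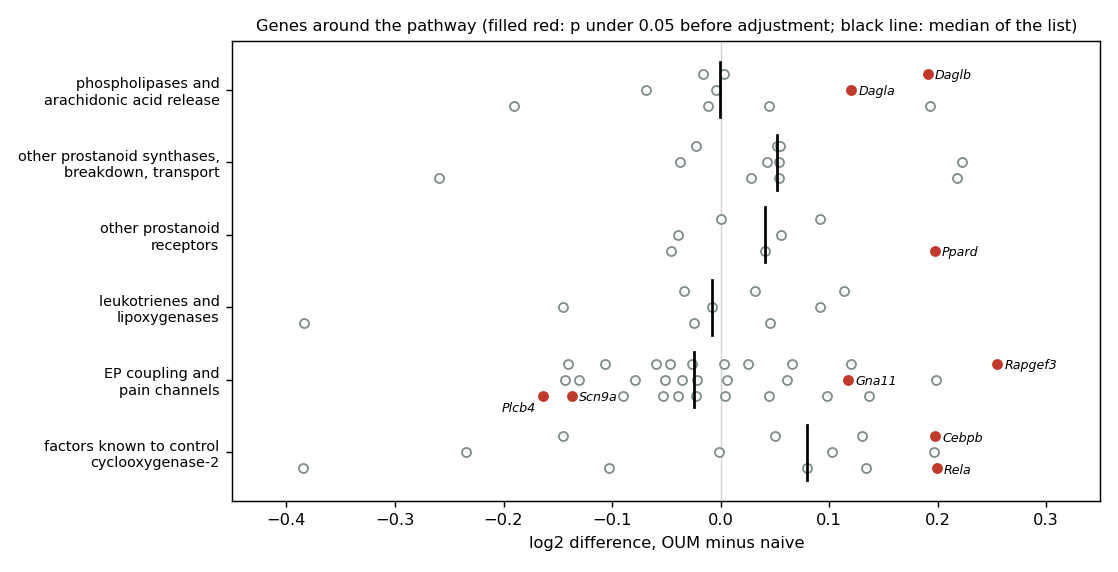
Log2 difference between OUM and naive for each tested gene of 6 lists around the pathway, 1 row per list, with filled red points at an unadjusted p under 0.05 and a black line at the median of the list. The 9 named points reach p under 0.05 before adjustment, none of them passes the adjustment, and the medians lie between -0.024 and 0.080.

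Markers of other cells were read beside these results. Of 5 mast cell genes well above background on every array, 2 were higher at an unadjusted p under 0.05, the proteases Cma1 (0.69) and Tpsab1 (0.50). Tpsb2 (0.28), Hdc (0.13) and Kit (0.0015) did not reach that threshold. Cpa3 (0.51) and Gata2 (0.29) also reached it, but were well above background on 3 and 4 of the naive arrays and entered the test through the OUM group. The summed linear level of the mast cell genes was 0.370 to 0.539 times the 75th percentile in naive and 0.470 to 0.613 in OUM. The mast cell receptor gene Ms4a2 was not well above background on any array. Of 12 macrophage genes 2 were higher, C1qa (0.33) and C1qc (0.24), and 0 were lower. The summed macrophage levels were 24.4 to 27.2 in naive and 22.9 to 30.3 in OUM. Of 6 tested satellite glia genes 2 were higher, Glul (0.22) and Sox10 (0.18), and 1 was lower, Fabp7 (-0.30). The summed satellite glia levels were 35.8 to 47.5 in naive and 38.9 to 56.2 in OUM. Endothelial genes had 2 of 7 higher, with summed levels of 5.82 to 6.62 and 5.93 to 7.10. Those 2 were Cldn5, at 0.28, and Vwf, at 0.20 with its brighter probe and 0.26 with its dimmer one. For Cldn5 the groups did not overlap (exact permutation p = 0.00794, limma adjusted p = 0.252), whereas for Vwf they did. Schwann cell genes had 1 of 8 higher, Egr2 (0.39), and 0 lower, with summed levels of 467 to 550 and 487 to 538. The summed level of the 6 epithelial genes on the array was 7.17 to 7.82 in naive and 7.86 to 8.09 in OUM. These ranges did not overlap. Most of the sum came from Cdh1, whose own groups overlapped (log2 difference 0.086), and 0 of the 5 tested genes were past the threshold. Neuronal genes had 0 of 13 past it and summed levels of 614 to 672 and 579 to 705. The part of these cells in the difference of Ptges was not tested. Pituitary hormone genes varied widely between rats, with summed levels of 0.975 to 30.0 in naive and 1.98 to 37.0 in OUM, and without the 3 arrays richest in them the log2 difference of Ptges was 0.36.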

How the data were processed

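Trigeminal ganglion RNA of 5 naive and 5 OUM rats was hybridised to single-colour Agilent rat arrays. The deposited processed signals are intensities from Feature Extraction 10.7.1.1, already background-corrected by the authors' scanner software; the array design refers to the rn4 build. The authors' deposited value table holds the same signals divided by a constant near each array's 75th percentile (column medians 0.114 to 0.120) and served as an alternative. Outlier and control spots were left out, spots of a probe were averaged, and log2 signals were centred on each array's 75th percentile. Of 30367 probes, 18438 were named through their transcript accession and the RefSeq GRCr8 gene table (names only) and 11929 were not. A probe was called well above background on an array when most of its spots were. The 21545 probes well above background on every array of at least 1 group were tested with limma 3.58.1 (R 4.3.3) and Benjamini-Hochberg adjustment over all of them. Two-sided exact permutation tests were run for single probes. The number of arrays limits the precision. The tests were checked on simulated data. Each array is a separate rat.

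The members and lists were chosen with earlier results of these data known. The members and the listed genes past an unadjusted p of 0.05 were named, with those furthest from 0 or central to the pathway, the latter chosen with their values seen, and the genes nearest to a member by Pearson r. Genes with several probes are given by their brightest. Alternatives were normexp (offset 50) on the median signal, since the scanner output held no mean signal, and quantile or median scaling. Further alternatives were other filters, slide or replicate number as a block, each slide alone and the methods' t-test. A trended prior, the authors' table and leaving out each array were also used. A fit without the 3 arrays that had the most pituitary hormone signal was added after seeing the data. Promoter windows came from RefSeq (GRCr8).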

Additional observations from a re-analysis of the deposited data

Results flagged for a closer look

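Ptger1 had 1 rat apart from its group. Naive array 2 had a log2 level of -5.25, and its gap to the nearest naive array was 0.735 of the range of the naive group, above Dixon's 95% critical value of 0.71 for 5 arrays. Of 24 groups examined, 12 probes in each condition, this was the 1 that exceeded it, and chance gives about 1 in 20.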

How the results depend on the processing

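The log2 difference of Ptges kept its direction under all 26 alternatives, between 0.29 and 0.36, and passed an unadjusted threshold of 0.05 in 25 of them, 1 of which was not a limma fit. Within slide 2 it did not (unadjusted limma p 0.0553), and the adjusted p ran from 0.108 to 0.635. Leaving out single arrays gave 0.30 to 0.36. No member probe was called under any alternative. Over all probes the number called, 0 as reported, was 4 with normexp, 4 with median scaling, 2 with probes well above background on all 10 arrays, 4 with slide as a block, 4 within slide 1, 186 within slide 2, where 1 naive array is assumed to vary like the 2 OUM arrays, 1 by the methods' t-test, and 0 to 1 on leaving out single arrays, with 1 without naive 5 or OUM 4. Differences near 0 changed sign. Within slide 1 Ptgs1 was -0.017, Ptges2 0.0075 and Ptges3 0.018; within slide 2 Hpgd was -0.27, Ptger3 0.26 and Ptger4 0.060. Ptges3 was 0.0032 with quantile scaling and Ptger4 0.0049 in the authors' table. Without the 3 pituitary-rich arrays Ptges3 was 0.010, Hpgd -0.094, Ptger3 0.026 and Ptger4 0.13. Leaving out single arrays gave -0.030 to 0.22 for Ptgs1, -0.073 to 0.0070 for Ptges2, -0.020 to 0.0086 for Ptges3, -0.079 to 0.096 for Hpgd and -0.10 to 0.036 for Ptger4. Ptger1 was between 0.058 and 0.16 on leaving out single arrays and 0.010 within slide 2. Ptger2 stayed between 0.16 and 0.54 and reached an unadjusted p under 0.05 only without OUM 4 (0.033). Ptger4 has no value when detection on all 10 arrays is required. The replicate numbers did not pair the rats, since deviations of same-numbered arrays correlated at -0.093 to 0.36; with a replicate block the adjusted p of Ptges was 0.635 at the same difference of 0.33, and 0 probes were called. The cause of these changes was not tested. Probes near background, Ptgs2 among them, limit what the arrays can show.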
